A study of Mus musculus with 5 samples.

Results

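The genes described here encode enzymes that take glucose carbon to pyruvate, pyruvate into mitochondria and through the tricarboxylic acid (TCA) cycle, and reducing equivalents across the mitochondrial membrane. There were 38 listed genes, of which 35 had a probe set annotated with a single gene symbol, out of 19938 genes measured in all. Where a gene had several such probe sets, the one with the highest mean signal over the 5 arrays was taken. They fell into glycolysis (9 of 12 genes measured), pyruvate entry (5 of 5), the TCA cycle (15 of 15) and shuttles (6 of 6). The gene listed as Pkm2 was matched through its current symbol Pkm. Gpi1, Gapdh and Eno1 were not analysed here; for Gapdh, 25 probe sets carried several symbols at once.

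RNA was measured on 5 arrays from pools of pancreatic islet cells sorted by flow cytometry. The Flattop-positive cells gave 3 arrays and the Flattop-negative cells 2. All pools came from untreated C57BL/6 mice, 8 to 12 weeks old and of undetermined sex, with 4 to 6 animals in a pool. Both fractions carried the same heterozygous Flattop genotype, written FVR/+ in the labels, so the sort separated cells within one genotype. The labels do not say whether pools shared mice, and the 2 Flattop-negative pools limit every comparison, since p-values measure only the spread between these pools.

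Islet β-cells sense glucose by metabolising it: glycolysis supplies pyruvate, mitochondria oxidise it, and the resulting ATP closes potassium channels and triggers insulin release. These cells send little pyruvate to lactate. Part of it enters the TCA cycle as acetyl-CoA through the pyruvate dehydrogenase complex and part as oxaloacetate through pyruvate carboxylase, while the malate-aspartate and glycerol phosphate shuttles pass electrons of cytosolic NADH to the mitochondria.

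The labelled tissue and the sort were checked on the same values, which are log2 signals. Cfap126, the Flattop gene, had 6.07, 6.07 and 6.24 on the Flattop-positive arrays, against 5.52 and 5.44 on the Flattop-negative arrays, without overlap. The islet hormone genes Ins2, Iapp and Gcg lay at 12.37 or above on every array. Of 6 α-cell markers 4 were measured, and 3 lay lower in the Flattop-positive arrays. Their list median was 8.78 to 9.05 there, against 7.47 and 9.62 on the Flattop-negative arrays. The α-cell marker with the higher mean, Ttr, read 12.27, 12.34 and 12.41 on the Flattop-positive arrays, against 9.69 and 12.67. Of the 9 β-cell markers, 9 lay higher in the Flattop-positive arrays, their list median was 10.84 to 11.14 there, against 10.28 and 9.29 on the Flattop-negative arrays, and the log2 of their summed linear signal was 14.46 to 14.74, against 14.13 to 14.26. Of 11 acinar markers 7 were measured, and 7 lay lower in the Flattop-positive arrays, with a log2 summed signal of 7.21 to 7.51 there, against 7.74 to 8.69. Of 8 macrophage and immune markers, 7 lay lower, with a log2 summed signal of 7.80 to 8.44 in the Flattop-positive arrays, against 7.74 to 9.97. Stellate markers (6 of 6) and endothelial markers (6 of 6) lay lower too, where 11802 of all 19938 genes did. These 4 lists had low signal, and all genes with a mean signal of 4 to 5 had a median difference of -0.28. After removing the median of all genes of similar signal, the median was -0.37 for acinar and -0.15 for macrophage and immune markers. It was -0.275 for stellate, -0.03 for endothelial and 0.74 for β-cell markers. The duct marker Krt7 was higher, at 9.29, 9.88 and 9.05 on the Flattop-positive arrays, against 6.76 and 8.37 on the Flattop-negative arrays; 2 of 4 duct markers lay higher. The 2 Flattop-negative arrays stood apart from each other: replicate 1 had Sst at 8.08 and Ppy at 8.98, against 13.19 and 13.63 on replicate 2 and at least 12.32 and 12.44 on the Flattop-positive arrays, and replicate 2 had the macrophage gene Lyz2 at 9.41, against 3.66 on replicate 1 and at most 4.58 on the Flattop-positive arrays. The 10 immediate early and stress genes had a median of 7.31, 6.09 and 10.14 on the Flattop-positive arrays and 6.77 and 10.05 on the Flattop-negative arrays, so they were high on 1 array of each fraction. The part of these differences in the results below was not tested. In sorted bulk pools, fewer cells of a type and less RNA per cell cannot be told apart.

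Most of the enzymes lay higher in the Flattop-positive cells. The log2 difference, Flattop-positive minus Flattop-negative, was above 0 for 31 of 35 genes (40.8% of all genes) and had a median of 0.92, against -0.10 over all genes. It ran from -0.135 for Me1 to 2.23 for Mdh2. The arrays of the fractions did not overlap for 26 of the 35, all higher in the Flattop-positive arrays, where 13.7% of all genes lay higher and 21% lower without overlap. Flattop-negative replicate 1 lay below all Flattop-positive arrays for 30 of 35 genes (29.3% of all genes) and replicate 2 for 29 (28.7%).

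In limma's moderated test over all genes, 0 of the 35 passed an adjusted p of 0.05, as did 0 of 19938 genes (2760 genes, 13.8%, had an unadjusted p under 0.05). The smallest adjusted p among the enzymes was 0.199, for Idh2. With a looser rule, a difference of 1.5-fold or more together with an unadjusted p under 0.05 (the unadjusted threshold from here on), 24 of 35 lay higher (68.6%) and 0 lower. Of all genes, 8.08% lay higher and 3.74% lower by the same rule, a split of 1610 to 746; it was 1903 to 450 when each array was centred on its median, and 766 to 605 when cyclic loess was applied. The differences of all genes grew with signal, and these enzymes are well expressed: with all genes weighted to the signal of the 35, 22% lay higher by that rule and 32.6% without overlap. After removing the median of all genes of similar signal, 29 of 35 differences stayed above 0, with a median of 0.57. Cyclic loess left 9 of 35 past the unadjusted threshold (3.84% of all genes) and repeated quantile normalisation 10 (4.54%), with medians of 0.62 and 0.65. Of the 24, cyclic loess cut the difference by over 1.5 times for 12, among them Pdha1 (0.72), Sdha (0.76), Sdhb (0.27), Cs (0.71), Pkm (0.85), Pfkm (0.43), Dlat (0.32) and Gpd2 (0.44). Without Flattop-positive replicate 1 the count was 14 and without replicate 3 it was 15.

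**Figure D1:**
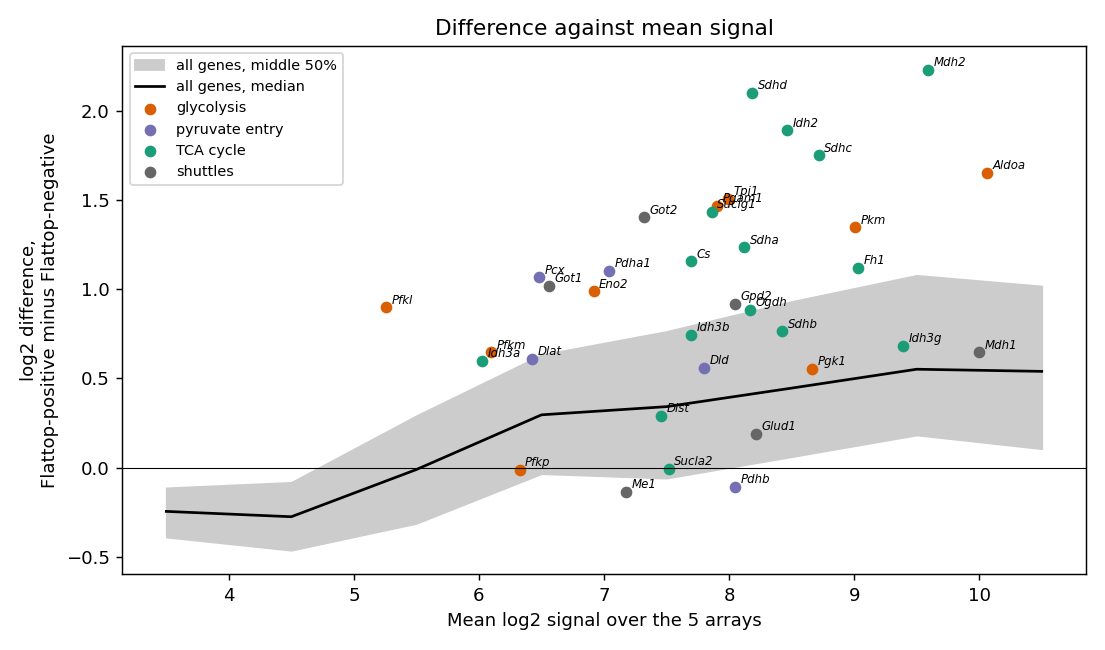
Each point is 1 enzyme gene, with its mean log2 signal over the 5 arrays on the horizontal axis and its log2 difference, Flattop-positive minus Flattop-negative, on the vertical axis; the line and grey band give the median and the middle 50% of all 19938 genes in steps of 1 log2 unit. The median of all genes climbs from -0.25 in the dimmest step to 0.54 in the brightest, and 29 of the 35 enzyme genes lie above the median of their own step.

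The Flattop-negative arrays differed from each other more than the Flattop-positive arrays did. Over the 35 genes the median SD was 0.24 between the Flattop-positive and 0.57 between the Flattop-negative arrays, against 0.20 and 0.33 over all genes. This did not hold for pyruvate entry, where the median SD was 0.23 in both fractions. For 24 genes the gap between the Flattop-negative arrays exceeded the whole range of the Flattop-positive ones. It reached 1 log2 unit for 12 genes, with replicate 1 the lower for 10 of them and replicate 2 for the other two, Idh3a and Sucla2. Over the 35 enzymes the 2 Flattop-negative arrays had a correlation of r = 0.544, against 0.935 to 0.979 for pairs of Flattop-positive arrays. Over all genes it was 0.846, against 0.953 to 0.984. The arrays share their probe sets and normalisation, so these values only describe the arrays. Of the 35, 19 were at least 1.5-fold lower on each Flattop-negative array than the Flattop-positive mean, which held for 6.63% of all genes. Each of the 5 arrays was also left out in turn, and 11 of the 35 stayed past the unadjusted threshold in all 5 fits, against 3.82% of all genes. These 11 were Pfkl, Tpi1, Pgam1, Pdha1, Idh2, Idh3b, Suclg1, Sdha, Sdhc, Got1 and Got2. The shares of 6.63% and 3.82% were taken over all genes and were not weighted to the signal of the 35.

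**Figure D2:**
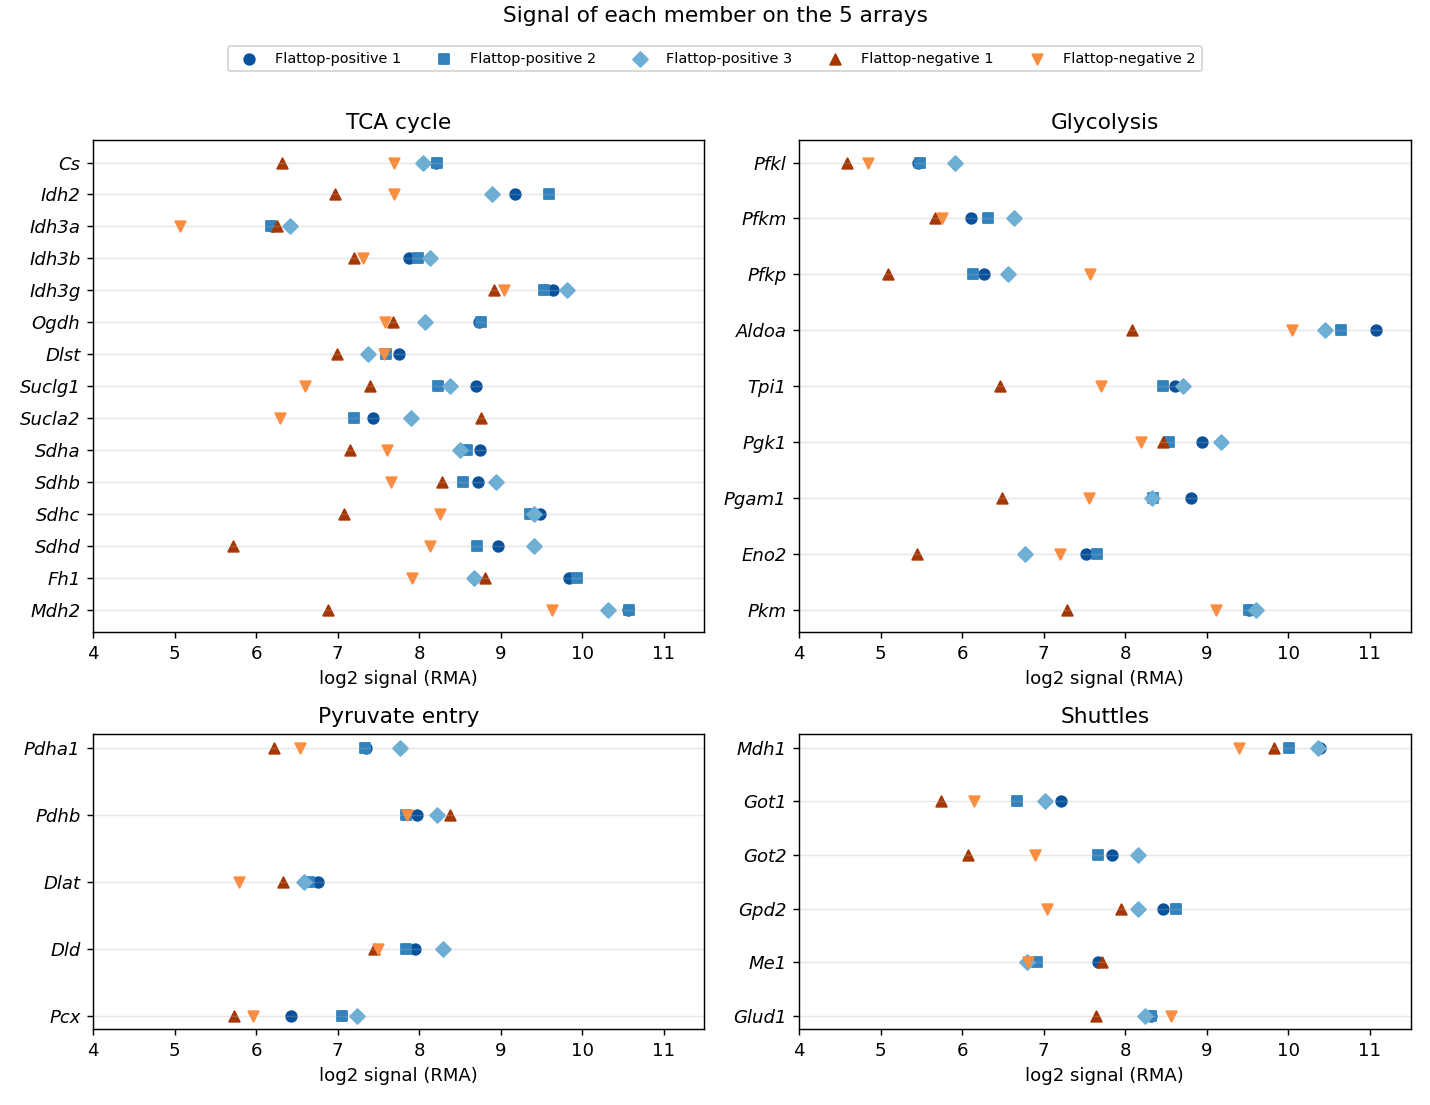
Log2 signal of the 35 enzyme genes on each array, in 4 panels by role, with blue symbols for the 3 Flattop-positive and orange or brown symbols for the 2 Flattop-negative arrays. For 26 genes both Flattop-negative symbols lie left of all Flattop-positive symbols; Sucla2 and Pfkp have 1 Flattop-negative symbol on each side.

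The immediate early genes were high on Flattop-positive replicate 3 and Flattop-negative replicate 2, and the median gap of the enzymes between those arrays was 0.87. Flattop-positive replicates 1 and 2 exceeded Flattop-negative replicate 1 by medians of 1.02 and 0.93. These are medians: 30 of 35 enzymes were higher on Flattop-positive replicate 3 than on Flattop-negative replicate 2, and Pfkp, Eno2, Dlst, Me1 and Glud1 were lower. The part of the immediate early genes in these gaps was not tested.

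Of the glycolysis genes, 8 of 9 lay higher in Flattop-positive cells, and the median of their log2 differences was 0.99. The unadjusted threshold was passed by 6 of 9, but by 3 without Flattop-positive replicate 3 and by 3 without Flattop-negative replicate 1. Against Flattop-negative replicate 2 alone the median was 0.67, and against replicate 1 alone it was 1.87. Phosphofructokinase commits sugar to glycolysis, and its 3 subunit genes differed in pattern. Pfkl, the liver-type subunit, stood at 5.46, 5.48 and 5.92 on the Flattop-positive arrays, against 4.59 and 4.85 on the Flattop-negative arrays, 0.90 ± 0.23 log2 units higher (SE; limma adjusted p = 0.253). Olfactory receptor genes, silent in islets, mark the floor of an array, and both Flattop-negative values were under their 95th percentile, so the size of that difference is uncertain. Pfkm, the muscle-type subunit, had 6.11, 6.32 and 6.63 on the Flattop-positive arrays, against 5.66 and 5.75 on the Flattop-negative arrays. Its groups did not overlap, and the difference was 0.65 ± 0.23 (SE; limma adjusted p = 0.320). For Pfkp, the platelet-type subunit, the Flattop-positive arrays read 6.27, 6.13 and 6.56, while Flattop-negative replicate 1 was at 5.09 and replicate 2 at 7.57. The Flattop-positive values thus lay between the Flattop-negative ones, and the difference of -0.01 ± 0.71 (SE) has no settled direction: against Flattop-negative replicate 1 alone it was 1.23, and against replicate 2 alone -1.25.

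Aldoa had the largest mean difference of the glycolysis genes. This aldolase, which splits the 6-carbon sugar, had Aldoa signals of 11.07, 10.64 and 10.45 on the Flattop-positive arrays, against 8.09 and 10.05 on the Flattop-negative arrays (1.65 ± 0.59, SE; limma adjusted p = 0.326). Tpi1, which interconverts the triose phosphates, had 8.61, 8.46 and 8.71 on the Flattop-positive arrays, against 6.47 and 7.71 on the Flattop-negative arrays, a 2.85-fold higher mean level (1.51 ± 0.39, SE; limma adjusted p = 0.253). In both genes Flattop-negative replicate 1 was the lowest array and replicate 2 lay 0.40 and 0.755 under the lowest Flattop-positive value. Without Flattop-negative replicate 1 the differences were 0.67 for Aldoa and 0.89 for Tpi1. Pgam1, the phosphoglycerate mutase, was at 8.80, 8.34 and 8.33 in Flattop-positive cells, against 6.49 and 7.56 in Flattop-negative cells, again without overlap (1.47 ± 0.37, SE; limma adjusted p = 0.251), and the difference was 0.94 without Flattop-negative replicate 1. Its 3 probe sets gave differences of 1.47, 1.76 and 1.47, and those at 1.47 held the same values. Pgk1, the kinase that makes the first ATP of the pathway, gave 8.94, 8.53 and 9.18 in Flattop-positive cells, against 8.47 and 8.19 in Flattop-negative cells. Its gap between the groups was 0.07 and the difference of 0.55 ± 0.26 (SE) did not pass the unadjusted threshold.

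The last steps followed replicate 1 as well. Pkm, pyruvate kinase, was tight on the Flattop-positive arrays at 9.52, 9.52 and 9.60, against 7.29 and 9.11 on the Flattop-negative arrays (1.35 ± 0.53, SE; limma adjusted p = 0.356). Without Flattop-negative replicate 1 its difference was 0.43. Eno2, the enolase of neurons and endocrine cells, read 7.51, 7.66 and 6.77 on the Flattop-positive arrays, against 5.45 and 7.20 on the Flattop-negative arrays. Here the fractions overlapped, since Flattop-negative replicate 2 lay above Flattop-positive replicate 3, and the difference of 0.99 ± 0.57 (SE) did not pass and was 0.11 without Flattop-negative replicate 1. When Flattop-negative replicate 2 was left out, the spread came from the Flattop-positive arrays alone, which replicate 1 was taken to share. In that fit 7 of the 35 enzyme genes passed the adjusted threshold, as did 434 of all genes (2.18%). They were Aldoa, Tpi1 and Pkm of glycolysis and Cs, Sdhc, Sdhd and Mdh2 of the TCA cycle, and their differences there were 1.84 to 3.61, with limma adjusted p from 0.0412 to 0.0455. With replicate 1 left out instead, 0 passed among the 35 and among all genes in limma.

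**Figure D3:**
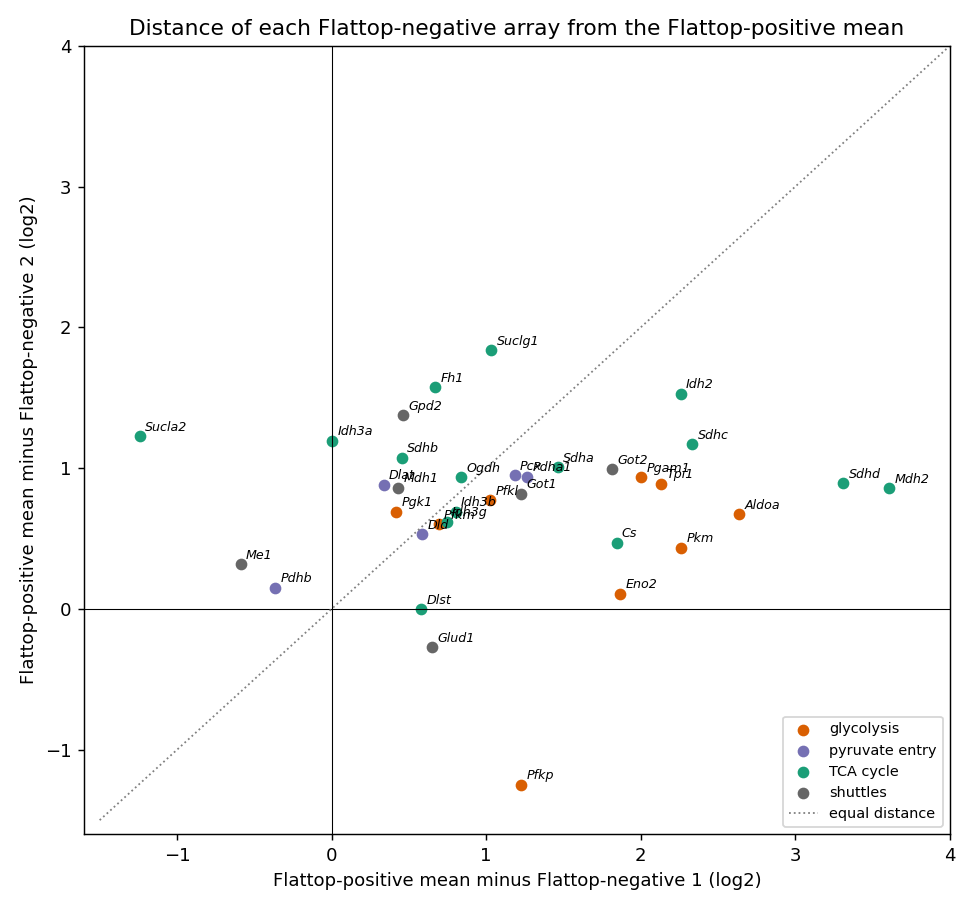
For each enzyme gene, the Flattop-positive mean minus Flattop-negative replicate 1 is on the horizontal axis and the Flattop-positive mean minus Flattop-negative replicate 2 on the vertical axis, both in log2 units, with a dotted line of equal distance. Glycolysis genes other than Pgk1 lie below the line. They are farther from replicate 1, except Pfkp, whose differences were 1.23 for replicate 1 and -1.25 for replicate 2. Suclg1, Fh1 and Gpd2 lie above the line, farther from replicate 2.

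Pyruvate entry genes lay higher for 4 of 5, with a median of 0.61, and 3 passed the unadjusted threshold. Repeated quantile normalisation and cyclic loess left medians of 0.36 and 0.32, and 1 gene passed in each. The pyruvate dehydrogenase complex turns pyruvate into acetyl-CoA, and the genes of its catalytic E1 pair differed. Pdha1, the E1 α subunit, stood at 7.35, 7.33 and 7.76 on the Flattop-positive arrays, against 6.21 and 6.54 on the Flattop-negative arrays. Both Flattop-negative arrays lay well below the Flattop-positive ones, a 2.15-fold difference (1.10 ± 0.24, SE; limma adjusted p = 0.220) that was 0.94 without Flattop-negative replicate 1. Pdhb, the E1 β subunit, had 7.97, 7.83 and 8.22 in Flattop-positive cells, against 8.37 and 7.86 in Flattop-negative cells. Its fractions overlapped (-0.11 ± 0.25, SE). The E2 gene Dlat stood at 6.76, 6.66 and 6.59 in Flattop-positive cells, against 6.33 and 5.78 in Flattop-negative cells, and did not overlap (0.61 ± 0.24, SE; limma adjusted p = 0.347), with 0.34 without Flattop-negative replicate 2. Dld, the E3 subunit that the 2-oxoglutarate dehydrogenase complex also uses, was at 7.95, 7.84 and 8.29 in Flattop-positive cells, against 7.44 and 7.49 in Flattop-negative cells. It had an unadjusted p of 0.0442 but was below 1.5-fold (1.47-fold). Pcx, pyruvate carboxylase, which refills the cycle with oxaloacetate, had 6.43, 7.06 and 7.24 on the Flattop-positive arrays, against 5.72 and 5.96 on the Flattop-negative arrays. The groups did not overlap, and the mean level was 2.1-fold higher (1.07 ± 0.30, SE; limma adjusted p = 0.270).

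TCA cycle genes made up the broadest group: 14 of 15 lay higher in Flattop-positive cells, the median log2 difference was 1.12, and 11 passed the unadjusted threshold. After cyclic loess the median was 0.63 and 4 passed. Without Flattop-positive replicate 1 the count was 6, and it was 7 without replicate 2 and 7 without replicate 3. The largest difference relative to its error was that of Idh2, the NADP-dependent mitochondrial isocitrate dehydrogenase. It had 9.18, 9.60 and 8.89 on the Flattop-positive arrays, against 6.96 and 7.69 on the Flattop-negative arrays. No Flattop-negative array came within 1 log2 unit of the Flattop-positive range, and the mean level was 3.72-fold higher (1.89 ± 0.33, SE; limma adjusted p = 0.199). Against the single Flattop-negative arrays its differences were 2.26 for replicate 1 and 1.53 for replicate 2, and Idh2 passed the unadjusted threshold in all 13 alternatives.

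The subunits of the NAD-dependent enzyme, isocitrate dehydrogenase 3, had smaller differences. Idh3b read 7.88, 7.98 and 8.13 in Flattop-positive cells, against 7.20 and 7.31 in Flattop-negative cells. Idh3g read 9.64, 9.54 and 9.81 in Flattop-positive cells, against 8.92 and 9.04 in Flattop-negative cells. These regulatory subunits agreed closely between the Flattop-negative arrays, with differences of 0.75 ± 0.19 and 0.68 ± 0.19 log2 units (SE; limma adjusted p = 0.252 for Idh3b and 0.274 for Idh3g), and with 0.295 and 0.19 after cyclic loess. Idh3a, the catalytic subunit, had 6.20, 6.19 and 6.42 in Flattop-positive cells, against 6.26 and 5.07 in Flattop-negative cells. Its fractions overlapped, and without Flattop-negative replicate 2 its difference was 0.005, against 0.60 over all arrays.

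Succinate dehydrogenase, which is also complex II of the respiratory chain, was lower on both Flattop-negative arrays in all 4 of its subunit genes. Sdha, the flavoprotein, stood at 8.75, 8.59 and 8.51 in Flattop-positive cells, against 7.15 and 7.61 in Flattop-negative cells (1.24 ± 0.225, SE; limma adjusted p = 0.203). Sdhb, the iron-sulfur subunit, was at 8.72, 8.53 and 8.95 in Flattop-positive cells, against 8.28 and 7.66 in Flattop-negative cells (0.76 ± 0.27, SE; limma adjusted p = 0.321), with 0.45 without Flattop-negative replicate 2. Over both Flattop-negative arrays the membrane anchors had larger mean differences, but against replicate 2 alone Sdhd had the smallest of the 4 (0.89, with 1.17 for Sdhc, 1.01 for Sdha and 1.07 for Sdhb). Sdhc had 9.49, 9.37 and 9.40 on the Flattop-positive arrays, against 7.08 and 8.25 on the Flattop-negative arrays, 3.37-fold higher (1.75 ± 0.365, SE; limma adjusted p = 0.218). Sdhd had 8.97, 8.71 and 9.40 on the Flattop-positive arrays, against 5.72 and 8.13 on the Flattop-negative arrays (2.10 ± 0.71, SE; limma adjusted p = 0.314). Its difference was 0.89 without Flattop-negative replicate 1, since that array held the lowest Sdhd signal by a wide margin.

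Succinyl-CoA ligase joins an α subunit, encoded by Suclg1, to either of the β subunits encoded by Sucla2 and Suclg2. Suclg1 stood at 8.69, 8.23 and 8.38 in Flattop-positive cells, against 7.40 and 6.59 in Flattop-negative cells (1.44 ± 0.31, SE; limma adjusted p = 0.220). Both Flattop-negative arrays were low, replicate 2 more so. Sucla2, of the ATP-forming enzyme, was at 7.44, 7.20 and 7.90 in Flattop-positive cells, against 8.75 and 6.29 in Flattop-negative cells. The Flattop-negative arrays lay on either side of the Flattop-positive ones, and the difference was -0.01 ± 0.72 (SE), or 1.23 without Flattop-negative replicate 1 and -1.24 without replicate 2. Suclg2, of the GTP-forming enzyme, is not among the 35 and was added after its values were seen; it had 7.45, 7.13 and 7.63 in Flattop-positive cells, against 6.97 and 7.03 in Flattop-negative cells (0.40 ± 0.22, SE; limma adjusted p = 0.461).

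Mdh2 closes the cycle as its mitochondrial malate dehydrogenase, and its mean difference was the largest of the 35 genes. It read 10.56, 10.58 and 10.32 on the Flattop-positive arrays, against 6.88 and 9.63 on the Flattop-negative arrays (2.23 ± 0.78, SE; limma adjusted p = 0.319). Replicate 1 set its size, since the difference was 0.86 without that array. Cs, citrate synthase, behaved likewise, at 8.21, 8.22 and 8.05 in Flattop-positive cells, against 6.32 and 7.69 in Flattop-negative cells (1.16 ± 0.42, SE; limma adjusted p = 0.328), or 0.47 without Flattop-negative replicate 1. Ogdh, the E1 subunit of 2-oxoglutarate dehydrogenase, stood at 8.73, 8.76 and 8.07 in Flattop-positive cells, against 7.68 and 7.58 in Flattop-negative cells. The Flattop-negative arrays agreed closely, and the groups did not overlap (0.89 ± 0.28, SE; limma adjusted p = 0.294). After cyclic loess the difference of Ogdh was 0.405, and it passed the unadjusted threshold in 1 of the 5 fits that left out an array. Dlst, the E2 subunit of that complex, overlapped at 7.75, 7.59 and 7.37 in Flattop-positive cells, against 6.99 and 7.57 in Flattop-negative cells, and its difference of 0.29 ± 0.26 (SE) changed sign after cyclic loess (-0.14). Fh1, fumarate hydratase, overlapped too, at 9.84, 9.94 and 8.67 in Flattop-positive cells, against 8.81 and 7.91 in Flattop-negative cells (1.12 ± 0.49, SE; limma adjusted p = 0.389), with 0.67 without Flattop-negative replicate 2 and 0.63 after cyclic loess.

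**Figure D4:**
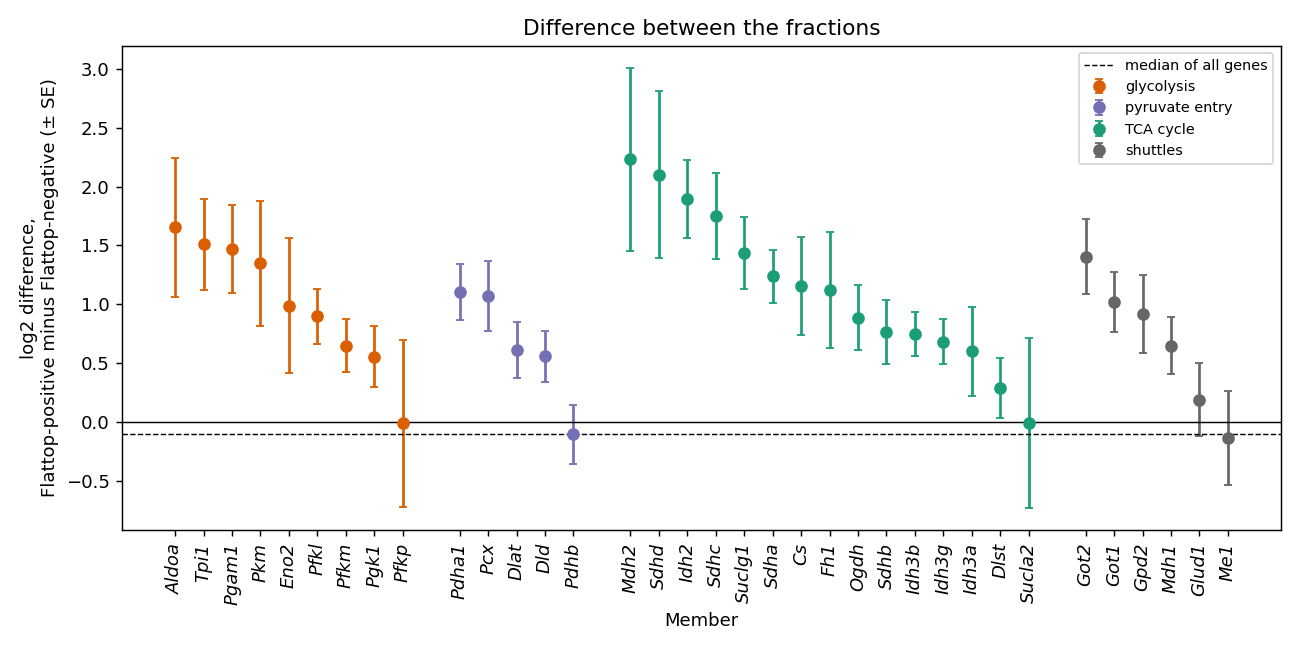
Log2 difference, Flattop-positive minus Flattop-negative, for each of the 35 enzyme genes with its standard error from limma, ordered within glycolysis, pyruvate entry, TCA cycle and shuttles; the dashed line marks the median of all genes at -0.10. Mdh2 and Sdhd have the largest differences but wide errors, while Idh2 and Sdha stand farther from 0 relative to theirs.

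Promoter windows of RefSeq, 250 bases before to 50 after the gene start on GRCm38.p6, were found for 33 of the 35 genes; Idh3a and Sdhc had no entry. They were searched on both strands for short core motifs of factors known for mitochondrial or metabolic genes. TGCGCA, of NRF1, stood in windows of 10 of 33 genes (30.3%) against 11.7% of the 15614 measured genes with a window. GGGCGG, of SP1, was in 23 of 33 (69.7%) against 52.9%. AAGGTCA, of the estrogen-related receptors, was in 4 of 33 (12.1%) against 4.48%, and CCGGAAG, of GABPA, in 6 of 33 (18.2%) against 13.6%. CACGTG, bound by USF and ChREBP, was in 3 of 33 (9.09%) against 9.5%, and AAGATGGC, of YY1, in 1 of 33 (3.03%) against 3.77%. Members had more windows per gene, 47 for 33 genes against 19177 for 15614. Per window, GABPA matched 12.8% of the members' windows and 12.1% of all, and the E-box CACGTG 10.6% and 8.24%, so the order of the E-box shares turned. The per-window shares were 25.5% and 10.3% for TGCGCA and 57.4% and 49.2% for GGGCGG. They were 8.51% and 3.82% for AAGGTCA and 2.13% and 3.18% for AAGATGGC. The shares over all measured genes were not weighted to the signal of the members. A match describes the letters and is neither a binding site nor a cause. The windows below show the start regions of Idh2 and Sdha, the lowest unadjusted p-values among the 35, of Sdhd and Mdh2, the largest differences, and of Suclg1 beside Sucla2, subunits of one enzyme with unlike values. They run 5′ to 3′ on the gene's strand, and capitals mark matches to any of the 6 motifs.
Idh2, chr7:80115301-80115600, minus strand: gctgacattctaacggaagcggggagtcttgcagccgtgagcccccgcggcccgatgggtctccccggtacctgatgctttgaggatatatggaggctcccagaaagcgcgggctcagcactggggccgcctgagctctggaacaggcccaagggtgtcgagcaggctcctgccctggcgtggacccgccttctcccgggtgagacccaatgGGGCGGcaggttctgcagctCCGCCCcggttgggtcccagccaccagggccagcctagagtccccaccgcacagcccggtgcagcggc
Sdha, chr13:74350191-74350490, minus strand: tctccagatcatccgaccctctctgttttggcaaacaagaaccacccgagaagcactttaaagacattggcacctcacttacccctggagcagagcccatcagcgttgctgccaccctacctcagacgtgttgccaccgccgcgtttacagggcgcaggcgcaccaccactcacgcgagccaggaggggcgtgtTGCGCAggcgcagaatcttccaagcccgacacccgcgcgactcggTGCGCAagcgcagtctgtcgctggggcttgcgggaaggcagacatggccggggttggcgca
Sdhd, chr9:50603800-50604099, minus strand: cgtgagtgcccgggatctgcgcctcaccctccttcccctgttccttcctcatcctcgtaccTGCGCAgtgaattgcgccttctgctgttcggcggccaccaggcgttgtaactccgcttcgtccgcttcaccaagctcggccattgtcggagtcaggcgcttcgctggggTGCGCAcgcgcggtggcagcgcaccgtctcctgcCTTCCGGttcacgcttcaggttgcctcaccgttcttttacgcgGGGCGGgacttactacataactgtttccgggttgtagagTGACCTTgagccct
Mdh2, chr5:135778399-135778698, plus strand: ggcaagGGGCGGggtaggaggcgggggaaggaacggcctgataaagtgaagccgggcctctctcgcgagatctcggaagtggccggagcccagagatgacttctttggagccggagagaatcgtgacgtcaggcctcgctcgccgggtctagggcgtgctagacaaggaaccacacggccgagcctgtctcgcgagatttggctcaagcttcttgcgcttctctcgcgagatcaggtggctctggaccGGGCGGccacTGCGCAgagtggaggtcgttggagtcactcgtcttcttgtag
Suclg1, chr6:73248255-73248554, plus strand: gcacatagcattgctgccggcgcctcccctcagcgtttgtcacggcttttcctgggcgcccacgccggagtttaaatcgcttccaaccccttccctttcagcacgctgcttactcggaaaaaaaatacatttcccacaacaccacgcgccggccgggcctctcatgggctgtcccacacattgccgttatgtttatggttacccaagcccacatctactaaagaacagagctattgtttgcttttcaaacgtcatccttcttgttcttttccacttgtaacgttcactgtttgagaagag
Sucla2, chr14:73552536-73552835, plus strand: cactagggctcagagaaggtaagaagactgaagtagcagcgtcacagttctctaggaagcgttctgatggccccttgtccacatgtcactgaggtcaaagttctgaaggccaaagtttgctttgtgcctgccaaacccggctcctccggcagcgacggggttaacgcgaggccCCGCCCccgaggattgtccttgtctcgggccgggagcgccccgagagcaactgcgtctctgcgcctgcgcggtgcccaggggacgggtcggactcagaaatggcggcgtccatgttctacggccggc
The Sdha window held TGCGCA at positions -56 and -11 relative to the gene start, and the Sdhd window held it at -189 and -80. The Idh2 and Sucla2 windows held only SP1 matches, 2 and 1 of them, and the Suclg1 window held 0 of the 6 motifs. No match in these 6 windows overlapped another.

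Shuttle and related genes lay higher for 5 of 6, with a median of 0.78, and 4 passed the unadjusted threshold (2 without Flattop-positive replicate 1). Under repeated quantile normalisation and cyclic loess the medians were 0.42 and 0.30, and 2 passed in each. The aspartate aminotransferases of the malate-aspartate shuttle were low on both Flattop-negative arrays. Got1, the cytosolic enzyme, had 7.21, 6.67 and 7.01 on the Flattop-positive arrays, against 5.74 and 6.15 on the Flattop-negative arrays, a 2.03-fold higher mean level (1.02 ± 0.26, SE; limma adjusted p = 0.25). Got2, the mitochondrial enzyme, had 7.83, 7.66 and 8.16 on the Flattop-positive arrays, against 6.07 and 6.89 on the Flattop-negative arrays (1.405 ± 0.32, SE; limma adjusted p = 0.228), and its other probe set gave 1.65. Mdh1, the cytosolic malate dehydrogenase, stood at 10.39, 10.01 and 10.37 in Flattop-positive cells, against 9.82 and 9.39 in Flattop-negative cells, with a gap of 0.18 between the groups (0.65 ± 0.24, SE; limma adjusted p = 0.338). Its difference was 0.43 without Flattop-negative replicate 2, 0.21 after repeated quantile normalisation and 0.16 after cyclic loess.

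Gpd2, the mitochondrial enzyme of the glycerol phosphate shuttle, was at 8.47, 8.63 and 8.16 in Flattop-positive cells, against 7.95 and 7.04 in Flattop-negative cells. It did not overlap, and its difference of 0.92 ± 0.33 (SE; limma adjusted p = 0.327) was 0.46 without Flattop-negative replicate 2. Me1, the cytosolic malic enzyme that makes NADPH, had 7.67, 6.91 and 6.79 in Flattop-positive cells, against 7.71 and 6.80 in Flattop-negative cells. Its fractions covered the same range (-0.135 ± 0.40, SE), and its other probe set gave -0.28. Glud1, glutamate dehydrogenase, was tight at 8.31, 8.32 and 8.24 in Flattop-positive cells, while the Flattop-negative arrays lay on either side at 7.64 and 8.56 (0.19 ± 0.31, SE). After cyclic loess its difference was -0.29, and it was -0.27 without Flattop-negative replicate 1.

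**Figure D5:**
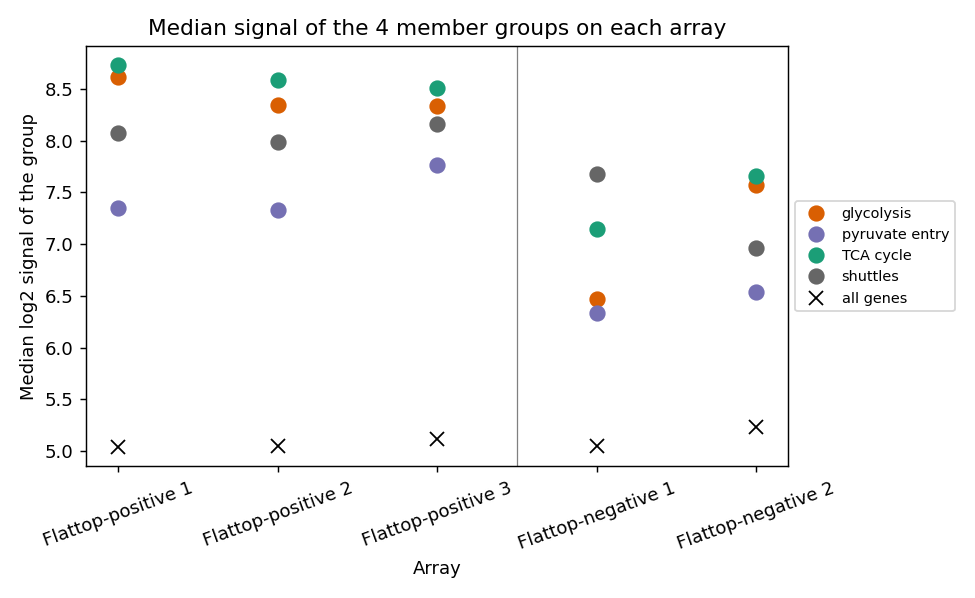
Median log2 signal of each enzyme group on each array (coloured points) and of all genes (crosses), with the 3 Flattop-positive arrays left of the line and the 2 Flattop-negative arrays right of it. All 4 group medians are lower on both Flattop-negative arrays; glycolysis is at 8.33 to 8.61 on the Flattop-positive arrays, against 6.47 and 7.57, and the TCA cycle at 8.51 to 8.73, against 7.15 and 7.66.

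Genes of the same pathways outside the 35 numbered 77, of which 69 were measured. Of these, 44 had a difference above 0, the median was 0.22, and 15 of 69 passed the unadjusted threshold, all higher (8.08% of all genes). Without Flattop-negative replicate 2 that count was 24. The pentose phosphate pathway, which makes NADPH from glucose 6-phosphate, had the highest median of the 6 lists, 1.44, with 7 of 7 genes above 0 and 4 past the unadjusted threshold. Taldo1, transaldolase, had 7.15, 6.73 and 6.93 in Flattop-positive cells, against 5.42 and 5.49 in Flattop-negative cells. Pgd, 6-phosphogluconate dehydrogenase, had 6.51, 6.31 and 6.82 in Flattop-positive cells, against 5.09 and 5.12 in Flattop-negative cells. Both Flattop-negative arrays were low and close together, with differences of 1.48 ± 0.21 for Taldo1 and 1.44 ± 0.22 for Pgd (SE; limma adjusted p = 0.198 each). Tkt, transketolase, was 1.55 ± 0.30 higher (SE; limma adjusted p = 0.214).

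Of genes for glucose entry and other glycolysis isoforms, 9 of 15 were above 0, with a median of 0.10. Slc2a2, the glucose transporter GLUT2, and Bpgm, bisphosphoglycerate mutase, were the 2 genes past the unadjusted threshold, at 1.48 ± 0.20 and 1.15 ± 0.30 (SE; limma adjusted p = 0.198 and 0.253). Lactate and glucose output genes had a median of -0.15 with 5 of 14 above 0. This list held dim genes, 4 of them under the floor on every array. After removing the median of all genes of similar signal, its median was 0.11, with 9 of 14 above 0. In that list the glucose 6-phosphate handling genes Slc37a4, G6pc3 and G6pc2 passed, at 1.70 ± 0.30, 1.59 ± 0.35 and 1.28 ± 0.32 (SE; limma adjusted p = 0.199, 0.220 and 0.249), and G6pc2 had 0.80 without Flattop-negative replicate 2. Slc2a2 and G6pc2 are also among the β-cell markers used to check the sort, with the same values. Pyruvate carrier and pyruvate dehydrogenase regulation genes had a median of 0.035 over 9 genes, and Pdk2, a kinase that inhibits the complex, was the 1 that passed (1.18 ± 0.31, SE; limma adjusted p = 0.253). The other kinase genes of that list were divided in direction. Pdk1 had 0.29 ± 0.19, while Pdk3 had -0.50 ± 0.42 and Pdk4 -1.80 ± 0.78 (SE), and none of them passed. Other TCA cycle genes had a median of 0.68 with 0 of 6 past the unadjusted threshold.

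Mitochondrial carriers and glutamate genes lay higher for 13 of 18, with a median of 0.33, and 5 passed. The citrate carrier Slc25a1 had 8.83, 8.56 and 8.28 in Flattop-positive cells, against 6.54 and 7.41 in Flattop-negative cells (1.58 ± 0.33, SE; limma adjusted p = 0.218). Slc25a11, the 2-oxoglutarate carrier of the malate-aspartate shuttle, had 6.98, 7.40 and 7.63 in Flattop-positive cells, against 6.23 and 5.49 in Flattop-negative cells (1.48 ± 0.32, SE; limma adjusted p = 0.220). Slc25a12, the aspartate-glutamate carrier of the same shuttle, had 7.83, 8.16 and 7.82 in Flattop-positive cells, against 7.07 and 7.08 in Flattop-negative cells (0.86 ± 0.20, SE; limma adjusted p = 0.238). None of these carriers overlapped between the fractions, but they were named for their small unadjusted p-values. In the whole list 6 of 18 genes lay higher without overlap and 2 lower, where 13.7% and 21% of all genes did.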

How the data were processed

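The table deposited by the authors gives log2 signal by probe set. The submitters' processing notes name RMA and Affymetrix Expression Console (version 1.3.0.187). RMA subtracts background, equalises the distribution of probes over arrays and fits each probe set by median polish, so differences are relative to the bulk of genes on an array. The SD over genes was 1.83 to 1.93 on the Flattop-positive arrays, against 1.65 and 1.63 on the Flattop-negative arrays. The 95th percentile of olfactory receptor genes was 4.29 to 4.45 on the Flattop-positive arrays, against 4.75 and 4.86. The part of these scales in the differences between fractions was not tested. No genome build is named in the labels. Arrays held 35556 probe sets with medians of 4.74 to 4.98; 21789 carried 1 gene symbol, 1621 several and 12146 none, and only the first were used. The number of arrays limits the precision.

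Fractions were compared in limma 3.58.1 (R 4.3.3) with group as the only term, two-sided, and p-values were adjusted by the Benjamini-Hochberg method over 19938 genes. The fit was tested on simulated data, with all arrays drawn at the spread of the Flattop-positive arrays. That simulation therefore does not cover the wider spread of the Flattop-negative arrays. Genes named outside the list are up to 3 per related list with the smallest unadjusted p past the unadjusted threshold, and Cfap126. Every measured member is named. Suclg2, Pdk1, Pdk3, Pdk4 and the cell type markers were picked after their values were seen. Members, lists and motifs were chosen with earlier results of these data known. With 3 and 2 arrays, the smallest one-sided p of an exact permutation test is 0.1. Alternatives tried were a replicate block, each array left out, 3 other scalings (quantile, cyclic loess, median centring), dim genes left out, the mean over probe sets, a variance trend, array weights and other thresholds. Other software was pandas 2.3.3 and matplotlib 3.10.9.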

Additional observations from a re-analysis of the deposited data

How the results depend on the processing

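Replicate numbers were not treated as pairs in the main fit. Deviations from the group means correlated over genes at r = 0.182 for number 1 and -0.137 for number 2. With 2 Flattop-negative arrays their deviations mirror each other, so this check cannot decide whether the numbers paired the arrays. With the replicate number as a block, on replicates 1 and 2 of each fraction, 17 of the 35 genes passed the unadjusted threshold against 24 without it, 3 against 6 in glycolysis, and the median was 0.96. With the block, 384 of all genes were called lower against 746, and 3 related genes against 0. Leaving out each array in turn gave 0 to 434 genes at the adjusted threshold, 930 to 2520 higher and 268 to 2202 lower at the unadjusted threshold over all genes, and 14 to 21 of the 35 higher, with 0 to 7 at the adjusted threshold. In the same fits glycolysis had 3 to 7 calls and a median of 0.67 to 1.87, pyruvate entry a median of 0.585 to 0.88, the TCA cycle 6 to 10 calls and a median of 0.84 to 1.21, shuttles 2 to 4 calls, and related genes 14 to 24 higher and 0 to 7 lower calls. Repeated quantile normalisation and cyclic loess gave 905 and 766 genes higher over all genes, 10 and 9 of the 35, and medians of 0.65 and 0.62. Their calls were 3 and 2 for glycolysis, 1 and 1 for pyruvate entry, 4 and 4 for the TCA cycle, and 2 and 2 for shuttles. Their medians were 0.36 and 0.32 for pyruvate entry, 0.75 and 0.63 for the TCA cycle and 0.42 and 0.30 for shuttles, and other TCA cycle genes had 0.29 after cyclic loess. Lower calls over all genes were 450 with centred arrays, 236 with dim genes left out and 416 with array weights. With dim genes left out, the median of related genes was 0.535, of lactate and glucose output genes 0.665 and of carriers 0.63. Array weights left 1 call in pyruvate entry, and the variance trend 7 in the TCA cycle, 2 in shuttles and 1 related gene lower.

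Signs turned for 6 genes. With each array left out, Pfkp ran from -1.25 to 1.23, Sucla2 from -1.24 to 1.23, Pdhb from -0.365 to 0.15, Me1 from -0.59 to 0.32 and Glud1 from -0.27 to 0.65. Centred arrays gave 0.059 for Pfkp and 0.063 for Sucla2, and the replicate block 0.032 for Me1. Quantile normalisation and cyclic loess gave -0.05 and -0.14 for Dlst and -0.10 and -0.29 for Glud1. The cause of these shifts was not tested. With 2 Flattop-negative arrays, leaving out either leaves 1, and the spread is then that of the other fraction. Of the 35 genes, 1 (Pfkl) lay near the floor of an array.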
